A study of Mus musculus with 250 samples.

Results

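The genes described here encode innate pattern recognition receptors, the proteins with which neutrophils, monocytes and macrophages sense microbial products and material from damaged or dying cells. The members were a list of 10 genes, Tlr1, Tlr2, Tlr4, Tlr6, Tlr13, Cd14, Clec4d, Clec4e, Trem1 and Fpr1, each measured through the array's probe sets that carry its symbol and no other. By this rule 9 of the 10 genes were measured, with 14 probe sets among them, out of 18193 genes on the array. Fpr1 was not analysed here.

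The tumor-bearing mice were female FVB animals with both the MMTV-rtTA and the TetO-NeuNT transgene, a doxycycline-inducible Her2/Neu model of breast cancer, and were sampled when the tumor measured 1 cm. The control mice were female FVB littermates with TetO-NeuNT only. Mice of both groups drank doxycycline (2 mg/mL with 5% sucrose) from week 8 of age. The MMTV promoter is active mainly in mammary epithelium, where rtTA, an activator that needs doxycycline, switches on NeuNT, the activated rat form of the receptor tyrosine kinase Her2. RNA of whole breast, liver, spleen, blood cells without plasma, and thymus was measured on Affymetrix arrays, with 25 tumor-bearing mice and their 25 age- and cage-matched controls per tissue (250 arrays). The question is how the RNA of these receptors differs between tumor-bearing and control mice, in the tumor tissue and in tissues without a primary tumor. Levels are log2 intensity, changes are tumor-bearing minus control log2 differences over 25 pairs, given as mean ± SE, and a gene is called, or said to have risen or fallen, at an adjusted p under 0.05 in limma. In whole tissue, more cells of a type and more RNA per cell cannot be told apart.

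Toll-like receptors (TLRs) are membrane proteins that bind conserved microbial molecules and signal through the adaptor Myd88 to NF-kB. TLR2 works in pairs with TLR1 or TLR6 on bacterial lipoproteins, TLR4 senses lipopolysaccharide with the help of the co-receptor CD14 and the partner MD-2 (Ly96), and TLR13, present in mice and not in humans, senses bacterial ribosomal RNA inside endosomes. The C-type lectins MCL (Clec4d) and Mincle (Clec4e) bind mycobacterial glycolipids and, in the case of Mincle, a nuclear protein released by dying cells, and they signal through Fcer1g and Syk. TREM1 amplifies inflammatory responses of neutrophils and monocytes through Tyrobp (DAP12). Myeloid cells that carry these receptors circulate in blood and reside in spleen and liver, and they also enter tumors.

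Some arrays stood apart from the rest of their tissue. Pairs are numbered within each tissue, so that the same number in another tissue need not be the same mice. Outlying arrays, by their correlation with the other arrays of the tissue, numbered 13, and 5 arrays lay nearer to the median profile of another tissue than to their own, with 14 arrays in all on either list, 11 of controls and 3 of tumor-bearing mice. The 5 were the spleen controls of pairs 13 and 21 (nearest breast), the tumor-bearing spleen of pair 21 (nearest thymus), and the thymus controls of pairs 11 (nearest breast) and 20 (nearest spleen). Summed B cell markers in spleen controls had a median intensity of 29175 and a lowest value of 334, and summed thymocyte markers in thymus controls had a median of 26317 and a lowest value of 2437. In liver, summed hepatocyte markers lay between 88810 and 109882 in tumor-bearing mice and between 77370 and 109924 in controls. Even so, 5 of the 13 outlying arrays were of liver. The lowest median correlation of a liver array was 0.337, against 0.989 for the middle array. Summed Kupffer cell markers, those of resident liver macrophages, had a median of 8441 and a lowest value of 433 in liver controls. Breast Erbb2, the gene whose rat form is induced, averaged 8.41 in tumor-bearing mice against 7.13 in controls (1.28 ± 0.15), and was lower in the tumor-bearing mouse in pairs 1 and 2. Sample names fall into an earlier number series (10 pairs) and a later one (15 pairs), which the labels do not explain, and results that rest on either are given for both.

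In tumor-bearing mice, most of these receptor genes rose in breast, liver, spleen and blood, and none was called in thymus. In breast 8 of 9 members rose and none fell, where 30.0% of all genes were called higher and 32.3% lower. Liver had 7 of 9 higher and none lower (7.89% of all genes higher and 2.28% lower), and spleen had 7 of 9 higher and none lower (22.4% and 18.3%). Blood had 8 of 9 higher and none lower, against 8.66% of all genes higher and 4.27% lower. At an unadjusted p under 0.05 the number of members lower was also 0 in each of these 4 tissues. In thymus 0 of 9 passed in limma in either direction, against 0.0110% of all genes higher and 0% lower, and 2 members, Cd14 and Clec4d, were higher at an unadjusted p under 0.05, against 3.04% of all genes.

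The members' median change was largest in blood at 1.54, followed by spleen at 0.84, breast at 0.54, liver at 0.50 and thymus at 0.27. The median over all genes lay between -0.03 and 0.01 in the 5 tissues. Both lectin genes and Trem1 had the largest changes in spleen, Cd14 and Clec4d had the largest in breast and liver, and Clec4e and Trem1 had the largest in blood. Tlr1 was the exception, with a called change in liver alone among the 5 tissues. Levels are compared only within a tissue, because the median array intensity differed between tissues (from 25.2 in blood to 129 in thymus). The members were not selected on these values, but the list was drawn up with earlier results of these data known.

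**Figure D1:**
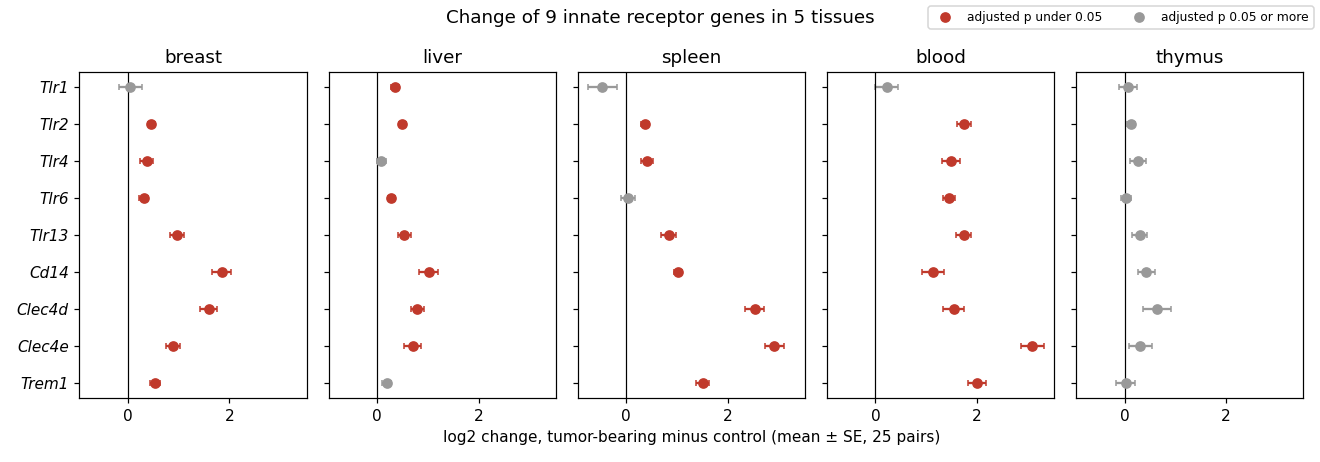
Log2 change (x axis, tumor-bearing minus control, mean ± SE over 25 pairs) of the 9 measured receptor genes (y axis) in each tissue, in red where the adjusted p was under 0.05 and in grey where it was not. Clec4e reached 2.92 in spleen and 3.09 in blood, Cd14 lay between 0.43 and 1.85 in all 5 tissues, and no gene is red in thymus.

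Marker genes of neutrophils moved in breast, liver, spleen and blood, and also in thymus, where no member was called. The mean of 10 measured neutrophil markers changed by 2.84 ± 0.18 in blood (8 genes called higher), 2.71 ± 0.19 in liver (10 higher) and 2.32 ± 0.20 in spleen (10 higher). It changed by 1.16 ± 0.34 in thymus (2 higher) and by 0.73 ± 0.12 in breast (5 higher, 1 lower). Their summed intensity ranged from 18432 to 79684 in tumor-bearing blood, against 973 to 12306 in control blood, so the groups did not overlap there. In liver the sums ranged from 1431 to 34333 in tumor-bearing mice and from 458 to 902 in controls, again without overlap. In spleen they ranged from 8591 to 155941 in tumor-bearing mice, against 2068 to 61287 in controls. In breast the range was 1149 to 13047 in tumor-bearing mice and 957 to 7390 in controls, and in thymus it was 2862 to 64692 in tumor-bearing mice and 1843 to 109342 in controls. None of the 10 markers sat at the intensity floor on most arrays of a tissue. How many other genes separate the groups as fully was not counted. The part of neutrophil content in the receptor changes was not tested; relations across pairs are given further on.

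The mean of 8 measured monocyte and macrophage markers changed less. It was 0.36 ± 0.07 in breast (3 called higher, 1 lower), 0.38 ± 0.12 in liver (1 higher), 0.12 ± 0.07 in spleen (3 higher, 2 lower), 0.23 ± 0.13 in blood (2 higher) and 0.11 ± 0.08 in thymus (0 called). Their summed intensity ranged from 6504 to 26274 in tumor-bearing blood and from 1206 to 24111 in control blood, and from 18141 to 31855 in tumor-bearing spleen against 6106 to 31406 in control spleen. In breast it ranged from 10256 to 18184 in tumor-bearing mice against 6199 to 20753 in controls, in liver from 6109 to 12372 against 479 to 10062, and in thymus from 9303 to 28203 against 6527 to 30549. The groups overlapped in each tissue, and none of the 8 markers sat at the floor on most arrays. The 5 Kupffer cell markers, those of the resident macrophages of the liver, had a mean change of 0.42 ± 0.18 in liver, with 1 of 5 called higher.

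Tlr2, the receptor shared by both lipoprotein-sensing pairs, rose in every tissue but thymus, and most in blood. On blood arrays its level was lowest at 6.82, median 7.75 and highest 9.48 in tumor-bearing mice, against 5.59, 6.25 and 7.80 in controls. All 25 pairs were higher in the tumor-bearing mouse, and 24 of the 25 controls lay below every tumor-bearing mouse. The change was 1.74 ± 0.14 (3.34-fold, adjusted p = 1.49e-09 in limma). In liver the levels ran between 6.54 and 7.61 in tumor-bearing mice against 5.74 and 7.18 in controls (0.50 ± 0.07, adjusted p = 1.68e-05). Breast showed a change of 0.46 ± 0.07 (adjusted p = 5.52e-06), and in both tissues Tlr2 was higher in 25 of 25 pairs although the 2 groups overlapped. In spleen the median level was 8.97 in tumor-bearing mice against 8.71 for controls, and the change of 0.37 ± 0.07 (adjusted p = 7.96e-05) held in 23 of 25 pairs. In thymus the change was 0.13 ± 0.08 (adjusted p = 0.995).

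Tlr6, a partner of TLR2 for diacylated lipoproteins, separated the groups completely in blood. Blood levels were lowest at 6.57, median 7.30 and highest 8.14 in tumor-bearing mice, against 5.10, 5.95 and 6.17 in controls. No control reached the lowest tumor-bearing array. In blood 8.66% of all genes were called higher, and the share without overlap was not counted. The change was 1.45 ± 0.12 (2.73-fold, adjusted p = 1.64e-09, 25 of 25 pairs). Smaller rises were measured in breast (0.31 ± 0.09, adjusted p = 0.00356, 17 pairs) and liver (0.28 ± 0.07, adjusted p = 0.0124, 20 pairs). The breast change was 0.42 in the earlier number series and 0.23 ± 0.11 (adjusted p = 0.0994) in the later one. After quantile normalization the liver change was 0.20 ± 0.10 (adjusted p = 0.204).

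In spleen, whether Tlr6 was called depended on the arrays that stood apart. Over 25 pairs its change was 0.04 ± 0.14 (adjusted p = 0.845, higher in 8 of 25 pairs). Tumor-bearing levels ran from 7.28 to 9.37 and control levels from 5.98 to 9.47. Pairs 13 and 21, whose control arrays lay nearest to breast, were at 3.09 and 1.30. Without them Tlr6 was lower in tumor-bearing spleen by a small amount (-0.15 ± 0.05, adjusted p = 0.0128, lower in 17 of 23 pairs).

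Tlr1, the partner of TLR2 for triacylated lipoproteins, did not follow the other receptors. Spleen levels were lowest at 8.35, median 10.26 and highest 10.60 in tumor-bearing mice, against 5.00, 11.01 and 11.36 in controls. Of the control arrays, 23 lay above every tumor-bearing array, and 2, those of pairs 13 and 21, lay below every tumor-bearing array. Over all 25 pairs the change was -0.47 ± 0.28 and was not called (adjusted p = 0.185). In the 23 pairs without these 2, levels lay between 9.62 and 10.60 in tumor-bearing mice and between 10.65 and 11.36 in controls, so the groups no longer overlapped. The share of all genes without overlap in these pairs was not counted. There Tlr1 fell by 0.86 ± 0.06 on the log2 scale (adjusted p = 6.86e-12, lower in 23 of 23 pairs). In that set of pairs 29.5% of all genes were called higher and 26.6% lower, and of the 9 members 7 were higher and 2, Tlr1 and Tlr6, were lower. Both number series were below 0 for Tlr1 in spleen, at -0.83 ± 0.08 in the earlier one (adjusted p = 7.85e-06) and -0.23 ± 0.44 in the later one (adjusted p = 0.745), which holds pairs 13 and 21.

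In breast the change of Tlr1 went opposite ways in the number series. Over all pairs it was 0.05 ± 0.22 (adjusted p = 0.857), with levels between 6.12 and 8.08 in tumor-bearing mice and between 4.96 and 8.53 in controls. In the earlier series Tlr1 was higher in 8 of 10 pairs (1.02 ± 0.31, adjusted p = 0.0251, where 18.2% of all genes were called higher and 20.5% lower). In the later series it was lower in 13 of 15 pairs (-0.59 ± 0.18, adjusted p = 0.00825, where 28.0% were called higher and 28.2% lower). The earlier series had control levels averaging 6.11 and the later one control levels averaging 7.55, while tumor-bearing levels averaged 7.13 and 6.96. The difference between the series was not tested.

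B cell markers also differed between the breast series and stood apart in spleen pairs 13 and 21, though in the earlier breast series their mean did not rise with Tlr1. The mean of 4 measured B cell markers changed by 0.03 ± 0.52 in the earlier breast series and by -2.75 ± 0.33 in the later one, with 4 of 4 called lower over all breast pairs. Their sums ranged from 103 to 3444 in tumor-bearing breast and from 119 to 5385 in control breast. B cell markers were not alone in this. In the earlier and later breast series T cell markers changed by -0.09 ± 0.38 and -2.27 ± 0.22, and Kupffer cell markers by -0.19 ± 0.29 and -1.47 ± 0.17. Neutrophil markers were at 0.89 ± 0.25 and 0.62 ± 0.12, monocyte and macrophage markers at 0.34 ± 0.10 and 0.37 ± 0.10, and erythroid markers at -0.06 ± 0.10 and -0.16 ± 0.11. In spleen the B cell marker mean was -0.79 ± 0.08 without pairs 13 and 21, lower in 23 of 23 pairs, and T cell markers were at -0.86 ± 0.06. Pair 13 had a Tlr1 change of 5.34 beside a B cell marker change of 5.26, and pair 21 had 2.75 beside 2.56. The part of B cell, T cell and other cell content in the Tlr1 values was not tested.

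**Figure D2:**
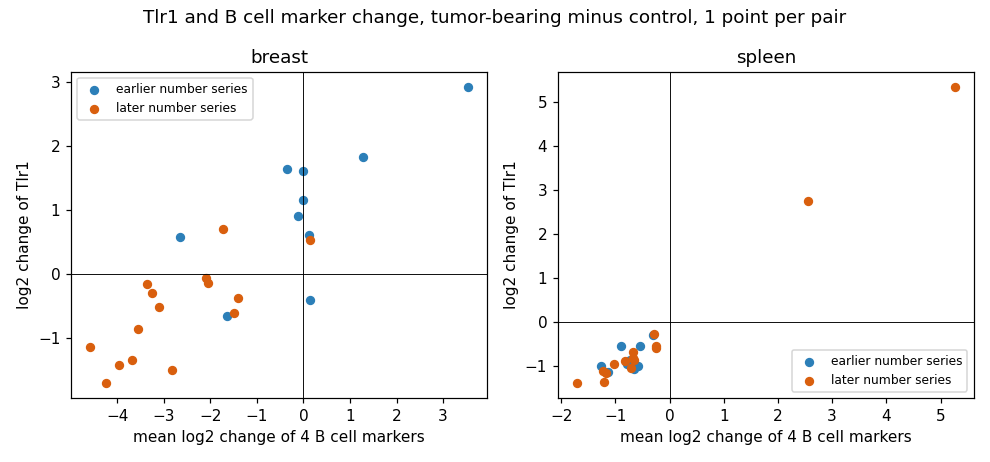
Log2 change of Tlr1 (y axis) against the mean log2 change of 4 B cell markers (x axis) in breast and spleen, tumor-bearing minus control, 1 point per pair, coloured by number series. In breast the later series lies mostly below 0 on both axes, and in spleen pairs 13 and 21 stand alone at the upper right while the other 23 pairs lie below 0 on both.

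Elsewhere Tlr1 moved little. In liver it rose by 0.35 ± 0.08 (adjusted p = 0.00201, 21 of 25 pairs), with levels between 4.39 and 5.67 in tumor-bearing mice and between 4.11 and 5.68 in controls, and with intensities floored at 32 the change was 0.12 ± 0.04 (adjusted p = 0.0986). Neither number series alone was called in liver (adjusted p = 0.177 and 0.0502). In blood it was 0.22 ± 0.22 (adjusted p = 0.611), and -0.01 without the outlying pairs 9 and 13. The thymus change was 0.07 ± 0.18 (adjusted p = 0.995).

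Tlr13 rose wherever Tlr2 did. Blood levels were lowest at 8.02, median 8.59 and highest 10.17 in tumor-bearing mice, against 6.23, 7.01 and 7.96 in controls. As for Tlr6, all 25 tumor-bearing arrays lay above all 25 controls (1.74 ± 0.15, 3.33-fold, adjusted p = 4.71e-09). The share of all genes separated as fully was not counted. In breast the levels were 6.21, 7.05 and 7.71 in tumor-bearing mice against 4.33, 6.19 and 7.46 in controls, and the gene was higher in 25 of 25 pairs (0.97 ± 0.14, adjusted p = 8.53e-07). Spleen levels were 6.81, 9.31 and 9.98 in tumor-bearing mice against 5.44, 8.66 and 9.11 in controls, and 19 tumor-bearing arrays lay above every control (0.84 ± 0.15, adjusted p = 3.98e-05, 25 of 25 pairs). Pair 13 alone was at 4.18 in spleen, and without pairs 13 and 21 the change was 0.70. In liver the change was 0.54 ± 0.12 (adjusted p = 0.00196, 22 pairs) and in thymus 0.30 ± 0.15 (adjusted p = 0.995, higher in 21 of 25 pairs).

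By its brightest probe set Tlr4, the lipopolysaccharide receptor, rose in blood and by less in spleen and breast, and was not called in liver or thymus. Its blood levels were lowest at 4.49, median 5.39 and highest 7.03 in tumor-bearing mice, against 3.50, 4.07 and 4.97 in controls, where 2 control arrays sat at the floor of 3.50. In 20 tumor-bearing mice Tlr4 exceeded every control (1.49 ± 0.17, 2.81-fold, adjusted p = 2.22e-07, 25 of 25 pairs). The spleen change was 0.41 ± 0.11 (adjusted p = 0.00268, 20 pairs) and was 0.29 without pairs 13 and 21. The breast change was 0.37 ± 0.13 (adjusted p = 0.0148, 18 pairs). It was 0.38 in the earlier series and 0.36 ± 0.19 (adjusted p = 0.123) in the later one. In liver it was 0.08 ± 0.09 (adjusted p = 0.637) and in thymus 0.27 ± 0.16 (adjusted p = 0.995).

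The 4 Tlr4 probe sets did not give 1 answer. Probe set 1418162_at, the brightest, gave the values above. Probe set 1418163_at was called in liver as well (0.28 ± 0.08, adjusted p = 0.0297) and had larger breast changes (0.64 ± 0.08). Probe set 1442827_at changed by 1.34 ± 0.10 in breast and 1.25 ± 0.15 in blood. The fourth, 1430695_at, sat at the floor on 48 of 50 blood arrays and was slightly lower in tumor-bearing breast (-0.15 ± 0.05, adjusted p = 0.00585). The probe sets agree on a rise in blood, apart from the one at the floor, and differ on liver and on breast. In breast their changes lay between -0.15 and 1.34, and by 1442827_at the breast change was no smaller than the blood change.

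Cd14, which hands lipopolysaccharide to TLR4, had the largest breast change of the 9 members. Breast levels were lowest at 10.19, median 11.87 and highest 12.73 in tumor-bearing mice, against 8.04, 10.04 and 11.93 in controls. The groups overlapped, with 11 tumor-bearing arrays above every control and 17 controls below every tumor-bearing array. The change was 1.85 ± 0.19 (3.61-fold, adjusted p = 4.11e-09), and both of the pairs in which Cd14 was lower, 1 and 2, were those with lower Erbb2 (-0.12 and -0.52). Spleen levels were 9.15, 9.61 and 10.51 in tumor-bearing mice against 8.10, 8.66 and 9.25 in controls, with 24 controls below every tumor-bearing array (1.02 ± 0.08, adjusted p = 3.96e-10, 25 of 25 pairs). In liver the levels were 8.17, 8.71 and 10.01 in tumor-bearing mice against 4.16, 7.90 and 9.24 in controls (1.02 ± 0.19, adjusted p = 0.000341, 25 of 25 pairs). The outlying control of liver pair 2 set the lowest value, that pair changed by 4.51, and without the 5 outlying pairs the liver change was 0.75.

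In blood Cd14 was more variable than the other called members. Tumor-bearing levels were lowest at 8.79, median 9.98 and highest 12.63, against 7.23, 8.85 and 11.90 in controls. The ranges overlapped widely, and 2 tumor-bearing arrays lay above every control (1.14 ± 0.22, adjusted p = 0.000584, 23 pairs). Within the earlier series the change was 1.62 ± 0.35 (adjusted p = 0.0514) and within the later one 0.82 ± 0.26 (adjusted p = 0.051), so neither series alone was called. The thymus change was 0.43 ± 0.17 (adjusted p = 0.995).

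**Figure D3:**
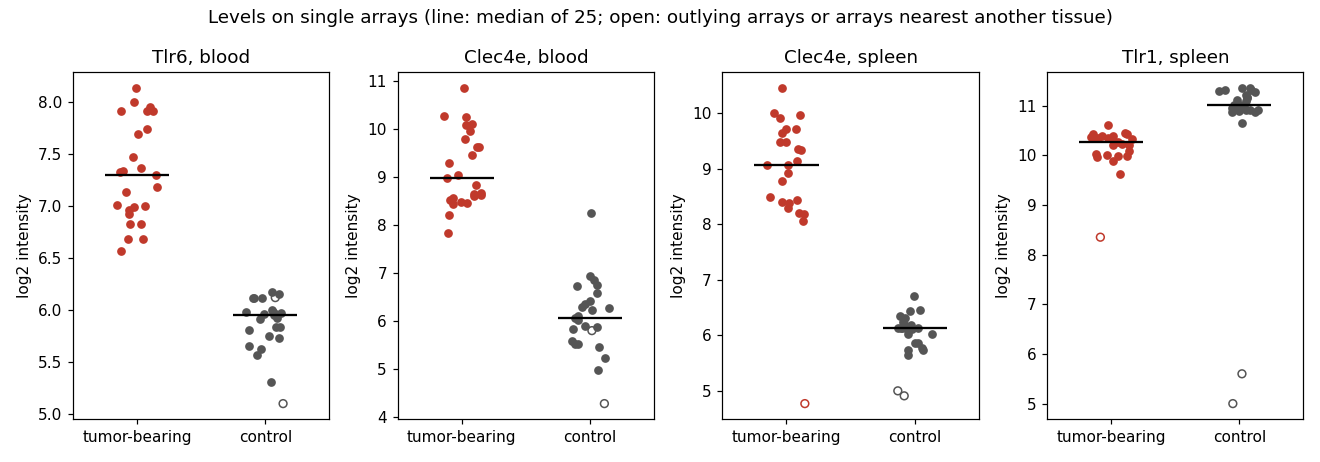
Log2 intensity (y axis) of single arrays of tumor-bearing and control mice (x axis) for Tlr6 in blood, Clec4e in blood, Clec4e in spleen and Tlr1 in spleen, with the median of 25 as a line and open circles for outlying arrays or arrays nearest another tissue. Tlr6 in blood shows no overlap (6.57 to 8.14 against 5.10 to 6.17), and the control arrays at 5.00 and 5.60 for Tlr1 in spleen are those of pairs 13 and 21.

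Clec4e and Clec4d, neighbouring lectin genes of mouse chromosome 6, had with Trem1 the largest rises of the list in spleen. Their promoters, from 250 bases before to 50 after the start in RefSeq (GRCm38.p6), are printed with matches to GAGGAA or its reverse complement TTCCTC in capitals. They are printed because these 3 genes moved together across spleen pairs (r between 0.85 and 0.91). In blood their r lay between 0.50 and 0.88, and in breast between 0.38 and 0.44. GAGGAA is the core of sites that the ETS factor PU.1 (Spi1), a regulator of myeloid genes, is known to bind. The promoter of Tlr1, which did not move with them in spleen (r between -0.14 and 0.11), follows for comparison. In blood Tlr1 did move with them (r between 0.51 and 0.76).
Clec4d, chr6:123261857-123262156, plus strand: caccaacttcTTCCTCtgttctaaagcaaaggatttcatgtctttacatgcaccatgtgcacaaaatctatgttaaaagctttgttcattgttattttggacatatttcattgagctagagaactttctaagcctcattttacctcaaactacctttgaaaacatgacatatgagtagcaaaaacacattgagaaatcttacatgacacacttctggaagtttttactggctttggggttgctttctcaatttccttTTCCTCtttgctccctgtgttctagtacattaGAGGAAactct
Clec4e, chr6:123289822-123290121, minus strand: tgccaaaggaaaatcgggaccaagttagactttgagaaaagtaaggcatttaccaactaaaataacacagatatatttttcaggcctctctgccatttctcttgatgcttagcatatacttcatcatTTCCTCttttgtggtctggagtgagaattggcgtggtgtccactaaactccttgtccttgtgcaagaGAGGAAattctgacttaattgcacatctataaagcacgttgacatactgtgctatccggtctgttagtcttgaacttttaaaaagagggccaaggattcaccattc
Trem1, chr17:48232489-48232788, plus strand: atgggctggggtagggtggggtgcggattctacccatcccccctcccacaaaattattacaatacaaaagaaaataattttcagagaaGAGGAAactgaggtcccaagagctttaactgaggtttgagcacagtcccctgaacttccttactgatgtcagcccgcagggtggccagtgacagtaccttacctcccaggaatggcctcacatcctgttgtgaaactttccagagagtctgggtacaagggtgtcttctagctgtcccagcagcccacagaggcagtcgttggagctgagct
Tlr1, chr5:64933509-64933808, minus strand: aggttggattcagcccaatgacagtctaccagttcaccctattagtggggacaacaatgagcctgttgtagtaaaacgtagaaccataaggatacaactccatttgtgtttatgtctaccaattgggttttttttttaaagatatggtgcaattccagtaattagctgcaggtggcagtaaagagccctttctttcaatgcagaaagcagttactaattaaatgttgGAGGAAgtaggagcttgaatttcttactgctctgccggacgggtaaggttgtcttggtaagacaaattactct

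A GAGGAA match was found in 5 of the 9 promoter windows of the 7 members searched, those of Clec4d (3 matches), Clec4e (2), Trem1, Tlr1 and Tlr13 (1 each). Of all 32851 promoters of this length 28.3% held a match on either strand. The motif was thus present both in genes that rose and in Tlr1. Windows of Tlr2 and Tlr6 held none, and a second Tlr1 window held none. Of the other motifs searched on both strands, TGANTCA had no match in these windows (7.81% of all promoters), TTNNGNAAT had 1 in Clec4d (11.5%) and a kappaB motif (GGG, any 3 letters, TTCC) had 1 in Tlr2 and 1 in a Tlr6 window (5.56%). The kappaB motif can share its last 4 letters with TTCCTC, but no window held both. A match is a string of letters and no measured site.

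Clec4e (Mincle) rose 7.57-fold in spleen and 8.53-fold in blood. Spleen levels were lowest at 4.77, median 9.07 and highest 10.46 in tumor-bearing mice, against 4.91, 6.13 and 6.71 in controls. All but 1 of the tumor-bearing arrays lay above every control, the exception being pair 21, whose tumor-bearing array lay nearest to thymus. The spleen change was 2.92 ± 0.19 (adjusted p = 1.1e-11, 24 of 25 pairs). Blood levels were 7.84, 8.98 and 10.86 in tumor-bearing mice against 4.28, 6.07 and 8.26 in controls, with 23 tumor-bearing arrays above every control (3.09 ± 0.23, adjusted p = 3.55e-10, 25 of 25 pairs). Its second probe set, 1420331_at, gave 1.79 ± 0.14 in spleen and 1.99 ± 0.16 in blood, in the same direction.

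In breast and liver Clec4e changed by less. Breast levels were lowest at 4.15, median 4.85 and highest 6.28 in tumor-bearing mice, against 3.61, 4.13 and 5.50 in controls (0.89 ± 0.14, 1.85-fold, adjusted p = 3.29e-06, 24 pairs). The second probe set, 1420331_at, changed by less in breast (0.24 ± 0.05). In liver the levels were 3.80, 4.69 and 5.76 in tumor-bearing mice against 3.52, 3.77 and 6.70 in controls. That highest control belongs to the outlying pair 2 (-2.35), and the liver change of 0.70 ± 0.17 (adjusted p = 0.00656, 23 pairs) was 0.97 without the 5 outlying pairs. The liver call was lost with the mean of both probe sets (0.38 ± 0.13, adjusted p = 0.0651), with quantile normalization (0.63 ± 0.22, adjusted p = 0.0633) and with a floor of 32 (0.01 ± 0.08, adjusted p = 0.983), and 1420331_at alone was at 0.06 ± 0.11. The thymus change was 0.31 ± 0.23 (adjusted p = 0.995).

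Clec4d (MCL), measured by 1 probe set with the suffix _s_at, which can match more than 1 transcript, rose in the same 4 tissues. Spleen levels were lowest at 5.48, median 9.88 and highest 10.69 in tumor-bearing mice, against 5.17, 7.28 and 8.01 in controls, with 24 tumor-bearing arrays above every control (2.53 ± 0.19, 5.77-fold, adjusted p = 1.25e-10). Blood levels were 9.99, 10.89 and 12.16 in tumor-bearing mice against 6.19, 9.47 and 10.67 in controls (1.54 ± 0.20, 2.91-fold, adjusted p = 3.76e-06, 24 pairs). In blood 19 tumor-bearing arrays lay above every control, so the overlap was larger than for Clec4e. Breast levels were 5.60, 7.20 and 8.44 in tumor-bearing mice against 4.56, 5.55 and 7.53 in controls (1.59 ± 0.16, 3.02-fold, adjusted p = 1.92e-09, 24 pairs). In liver the change was 0.79 ± 0.13 (adjusted p = 6.39e-05, 23 pairs), and pair 2, with the outlying control, was at -1.75.

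Trem1 rose in blood, spleen and breast. Its blood levels were lowest at 6.17, median 7.62 and highest 9.88 in tumor-bearing mice, against 4.66, 5.67 and 7.17 in controls, with 17 tumor-bearing arrays above every control (2.00 ± 0.18, 4.01-fold, adjusted p = 9.08e-09, 25 of 25 pairs). Spleen levels were 5.00, 8.21 and 9.29 in tumor-bearing mice against 5.46, 6.81 and 7.20 in controls (1.51 ± 0.13, 2.84-fold, adjusted p = 8.78e-10, 24 pairs). As with both lectin genes, 24 of 25 tumor-bearing spleens lay above every control and pair 21 did not. The breast change was 0.54 ± 0.10 (adjusted p = 4.87e-05, 21 pairs). In liver it was 0.19 ± 0.09 and not called (adjusted p = 0.204), but 0.20 ± 0.06 and called in the 20 pairs without outlying arrays (adjusted p = 0.0108). A second probe set, 1460282_at, changed by 1.58 ± 0.20 in blood, 0.88 ± 0.10 in spleen and 0.28 ± 0.06 in breast.

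In thymus none of the 9 members was called. Clec4d had the largest change (0.64 ± 0.27, adjusted p = 0.995, higher in 22 of 25 pairs), with levels of 5.22, 6.19 and 8.85 in tumor-bearing mice against 4.94, 5.41 and 9.94 in controls. The highest control was that of pair 20, the array nearest to spleen, where Clec4d changed by -3.90, Clec4e by -3.95, Trem1 by -2.48 and the neutrophil marker mean by -4.64. Without the pairs of outlying arrays or arrays nearest another tissue (22 left), Clec4d was at 0.87 ± 0.22 (adjusted p = 0.182), Clec4e at 0.58 ± 0.16 (adjusted p = 0.236) and Tlr4 at 0.45 ± 0.14 (adjusted p = 0.333). Still 0 members were called, against 0.0824% of all genes higher and 0% lower, and 7 were higher at an unadjusted p under 0.05 in limma, against 6.10% of all genes.

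Without its 5 outlying pairs the liver had 8 of 9 members higher and none lower, where 18.6% of all genes were called higher and 18.9% lower. Only Tlr4 stayed uncalled there, at 0.13 ± 0.09. In the earlier liver series alone 0 members were called in limma, where 0.467% of all genes were called higher and 0.0550% lower. There 5 members were higher at an unadjusted p under 0.05 (Cd14, Clec4d, Tlr1, Tlr13 and Tlr2), against 5.59% of all genes. The later series had 6 members called higher and 0 lower, against 12.1% and 11.7% of all genes. Breast had 9 members higher in the earlier series, where 18.2% of all genes were called higher and 20.5% lower. In the later series 6 were higher and 1 lower, against 28.0% and 28.2% of all genes. RNA integrity also differed in breast, where the 3 prime to 5 prime log2 ratio of Gapdh averaged 0.03 in tumor-bearing mice against 0.79 in controls (-0.76 ± 0.17) and that of actin 0.39 against 0.78 (-0.39 ± 0.08). In breast 4 of 4 adipocyte markers were lower and 5 of 5 epithelial markers higher, and the part of these differences in the receptor values was not tested.

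The size of the change differed between tissues for most of the receptors. An F-test over liver, spleen, blood and thymus called 7 of 9 members, where 29.1% of all genes were called, and Tlr1 (adjusted p = 0.0863) and Cd14 (adjusted p = 0.0797) were not. Breast, where the tumor-bearing arrays measure tumor tissue, did not enter this test. Without outlying arrays or arrays nearest another tissue 8 members were called, against 51.8% of all genes. The test treated the tissues as independent, although they come from the same mice as far as sample names show. With the mouse pair linked by those names as a block, 8 members were called, against 30.2% of all genes.

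Tlr2, Tlr4, Tlr6 and Tlr13 had their largest changes in blood, though for Tlr4 probe set 1442827_at gave 1.34 ± 0.10 in breast and 1.25 ± 0.15 in blood. Tlr2 changed by 0.50 in liver against 1.74 in blood, a difference of -1.24 ± 0.14 (adjusted p = 2.15e-12), and by 0.37 in spleen against 1.74 in blood (-1.36 ± 0.14, adjusted p = 1.09e-13). Tlr4, Tlr6 and Tlr13 also changed by less in liver and spleen than in blood, with differences between -0.90 ± 0.21 (Tlr13, spleen minus blood, adjusted p = 0.000549) and -1.42 ± 0.19 (Tlr4, liver minus blood, adjusted p = 7.76e-09). Between liver and spleen none of these 4 genes differed past the threshold (adjusted p between 0.245 and 0.577), while without outlying arrays or arrays nearest another tissue Tlr6 did (0.44 ± 0.13, adjusted p = 0.00381). Against thymus, the change in blood was larger for each of the 4, by between 1.22 ± 0.19 for Tlr4 and 1.61 ± 0.14 for Tlr2.

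Clec4e, Clec4d and Trem1 changed by less in liver than in spleen. Their signal in liver was low, with control means of 3.98, 5.06 and 4.78 and the floor at 3.50. Of the members, only Cd14 and Tlr2 lay above the median level of genes in liver. The part of low signal in the smaller liver changes was not tested. Clec4e changed by 0.70 in liver against 2.92 in spleen (-2.22 ± 0.30, adjusted p = 4.77e-09), Clec4d by 0.79 against 2.53 (-1.74 ± 0.30, adjusted p = 2.02e-06) and Trem1 by 0.19 against 1.51 (-1.32 ± 0.22, adjusted p = 1.41e-06). Liver also lay below blood for Clec4e (-2.39 ± 0.30, adjusted p = 4.25e-10) and Trem1 (-1.81 ± 0.22, adjusted p = 1.01e-10), while Clec4d did not pass there (-0.76 ± 0.30, adjusted p = 0.0791). Between spleen and blood, Clec4e (-0.17 ± 0.30, adjusted p = 0.816) and Trem1 (-0.50 ± 0.22, adjusted p = 0.125) did not pass, while Clec4d changed more in spleen than in blood (0.99 ± 0.30, adjusted p = 0.0113). The neutrophil markers had a mean change of 2.71 in liver, 2.32 in spleen and 2.84 in blood, with single markers in different orders, as 2 chosen after their values were seen show. S100a8 changed by 5.25 in liver, against 1.20 in spleen and 2.95 in blood. Cxcr2, a neutrophil chemokine receptor gene, changed by 0.59 in liver, against 2.24 in spleen and 2.99 in blood. Differences of the markers between tissues were not tested. Cd14 passed in no pair of tissues, with the largest difference between blood and thymus (0.71 ± 0.25, adjusted p = 0.067).

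Over all 6 pairs of tissues the members called can be read against all genes. Liver against spleen had 1 member called higher (Tlr1, 0.82 ± 0.29, adjusted p = 0.0336) and 3 lower, where 9.50% of all genes were higher and 8.86% lower. Liver against blood had 0 higher and 6 lower (7.20% and 5.47% of all genes), and liver against thymus had 0 in either direction in limma (2.91% and 1.64%). Spleen against blood had 1 higher and 4 lower (8.23% and 7.26%). Spleen against thymus had 3 higher and 0 lower (9.34% and 6.68%), and blood against thymus had 7 higher and 0 lower (5.48% and 2.35%). Without outlying arrays or arrays nearest another tissue, Clec4d was no longer called between blood and thymus (0.45 ± 0.22, adjusted p = 0.131), and the Tlr1 change, -0.86 in spleen against 0.30 in liver, -0.01 in blood and 0.03 in thymus, was more negative in spleen than in each of those tissues (liver minus spleen 1.17 ± 0.17, spleen minus blood -0.85 ± 0.16, spleen minus thymus -0.90 ± 0.16).

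Other receptors of the same families moved in part with the members. Counts for these lists, as for the marker lists, stand beside the shares of all genes called. In breast 30.0% of all genes were higher and 32.3% lower, and in liver 7.89% and 2.28%. The shares were 22.4% and 18.3% in spleen, 8.66% and 4.27% in blood, and 0.0110% and 0% in thymus. A count near these shares is no result about its list. Of 10 measured myeloid C-type lectin, TREM and formyl peptide receptor genes outside the list, 6 rose and 2 fell in breast, 5 rose in liver, 7 in spleen and 7 in blood, and none was called in thymus. Fpr2, the formyl peptide receptor gene that was measured, rose in breast (0.48 ± 0.13), liver (0.92 ± 0.14), spleen (2.08 ± 0.18) and blood (2.71 ± 0.26). Trem3, a mouse relative of TREM1, rose in spleen (2.75 ± 0.21), blood (2.02 ± 0.15) and liver (0.45 ± 0.10). Clec5a, a lectin that signals through Tyrobp, rose in spleen (2.34 ± 0.20), blood (1.36 ± 0.15) and breast (0.80 ± 0.09). Clec7a, the beta-glucan receptor Dectin-1, rose in blood (1.98 ± 0.18), spleen (1.44 ± 0.13), breast (0.71 ± 0.13) and liver (0.63 ± 0.12). Clec4n, which encodes Dectin-2, rose in breast (1.32 ± 0.19), blood (1.17 ± 0.13) and liver (1.00 ± 0.15), and Trem2, a lipid-sensing receptor of macrophages, rose in breast (0.97 ± 0.12) and spleen (0.38 ± 0.06). The median change of this list was 0.43 in breast, 0.41 in liver, 0.83 in spleen and 1.26 in blood.

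TLRs outside the list changed less and in both directions. Of 6 measured, 2 rose and 1 fell in breast, 1 rose and 1 fell in liver, 1 rose and 2 fell in spleen, 2 rose in blood and none was called in thymus, with medians between -0.07 and 0.11. Tlr3, the receptor for double-stranded RNA, rose in breast (1.47 ± 0.12) and fell in spleen (-0.59 ± 0.07). Tlr5, the flagellin receptor, fell in breast (-0.46 ± 0.09) and liver (-0.32 ± 0.07). Tlr8 rose in liver (0.22 ± 0.07), spleen (0.49 ± 0.07) and blood (0.67 ± 0.10), and Tlr7, a receptor for single-stranded RNA, rose in blood (0.26 ± 0.08).

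Among 9 TLR partners and chaperones, 3 rose and 3 fell in breast, 4 rose in liver, 1 rose and 3 fell in spleen and 3 rose in blood, with none called in thymus. The breast counts lie near the shares over all genes (30.0% higher and 32.3% lower). Lbp, the serum protein that carries lipopolysaccharide to CD14, rose in breast (2.68 ± 0.23), liver (1.41 ± 0.19), spleen (1.63 ± 0.15) and blood (0.40 ± 0.11). Ly96, the MD-2 partner of TLR4, rose in liver (0.67 ± 0.11) and blood (0.52 ± 0.14). Cd36, a scavenger receptor that assists TLR2 and is abundant in adipocytes, fell in breast (-3.54 ± 0.33), where the 4 adipocyte markers had a mean change of -3.51 ± 0.32.

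Adaptors and kinases rose in 6 and fell in 1 of 11 genes in breast, rose in 5 in liver, rose in 4 and fell in 4 in spleen and rose in 6 in blood, with none called in thymus. Myd88, the adaptor of most TLRs, rose in blood by 2.14 ± 0.18 (4.41-fold), in breast by 0.63 ± 0.09, in spleen by 0.53 ± 0.06 and in liver by 0.45 ± 0.13. Tyrobp, the adaptor of TREM1, rose in blood (1.40 ± 0.28), spleen (0.61 ± 0.15), liver (0.68 ± 0.22) and breast (0.54 ± 0.10). Fcer1g, the adaptor of both lectins, rose in blood (1.11 ± 0.21), spleen (0.66 ± 0.13), liver (0.52 ± 0.14) and breast (0.26 ± 0.10), and Syk, their kinase, rose in blood (0.60 ± 0.17) and liver (0.46 ± 0.14) and fell in breast (-0.93 ± 0.18). Inhibitors of the pathway rose in 3 and fell in 2 of 8 genes in breast, rose in 3 in liver, rose in 1 and fell in 3 in spleen, rose in 3 in blood and were called in none in thymus. Irak3, a brake on Myd88 signalling, rose in liver (0.50 ± 0.14) and blood (0.54 ± 0.14) and fell in breast (-0.40 ± 0.12), and Sigirr, which restrains TLR signalling, fell in spleen (-0.55 ± 0.09) and rose in breast (0.33 ± 0.09).

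Endogenous ligands of these receptors had the largest median change of the pathway lists in breast (1.86), liver (0.96) and spleen (1.33). Of 9 measured, 8 rose and 1 fell in breast, 6 rose in liver, 7 in spleen, 5 rose and 1 fell in blood, and 2 rose in thymus. S100a8 and S100a9, the calprotectin subunits that can act on TLR4 and are themselves neutrophil markers, rose in liver (5.25 ± 0.23 and 5.03 ± 0.20), blood (2.95 ± 0.27 and 3.05 ± 0.22), breast (2.56 ± 0.29 and 1.86 ± 0.29), spleen (1.20 ± 0.15 and 1.33 ± 0.17) and thymus (1.88 ± 0.31 and 2.21 ± 0.37, adjusted p = 0.0191 for both). Pglyrp1, a neutrophil granule protein that can act on TREM1, rose in breast (3.86 ± 0.24), liver (2.01 ± 0.25), spleen (2.44 ± 0.23) and blood (2.64 ± 0.26). Saa3, an acute phase protein, rose in breast (2.76 ± 0.27), spleen (1.79 ± 0.28) and liver (0.96 ± 0.22).

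Of 16 inflammatory target genes 8 rose and 2 fell in breast, 4 rose in liver, 4 rose and 1 fell in spleen, 4 rose in blood and none was called in thymus. Il1b, which encodes the cytokine interleukin 1 beta, rose in breast (2.15 ± 0.20), liver (0.89 ± 0.15), spleen (2.19 ± 0.15) and blood (2.75 ± 0.25). Cxcl1, a neutrophil attractant, rose in breast (2.46 ± 0.21) and liver (3.05 ± 0.16) and fell in spleen (-0.31 ± 0.06). Ptgs2, the inducible cyclooxygenase, rose in breast (3.81 ± 0.32). Cytosolic receptors had medians between -0.14 and 0.19, with 2 of 7 higher and 2 lower in breast, 1 higher in liver, 3 higher and 2 lower in spleen, 2 higher in blood and none called in thymus. Their breast counts also lie near the shares over all genes. Nlrp3, the inflammasome sensor, rose in blood (0.55 ± 0.11) and spleen (0.22 ± 0.03).

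Across the 25 pairs of a tissue, members' changes were set against the mean change of the neutrophil markers. These were 90 relations with both marker lists in 5 tissues, each with Pearson's r, Spearman's rho and p from 100000 two-sided permutations adjusted over all 90, and 40 passed by both measures. Both changes come from the same arrays, so they share array-wide shifts. The relations were computed for the members only, and the share of all genes that would pass was not counted. The counts that passed are therefore no result particular to these receptors. In blood 8 of 9 members passed, with r between 0.66 (Tlr1 and Trem1) and 0.80 (Tlr6), and Cd14 did not (r = 0.36, rho = 0.39, permutation adjusted p = 0.114 and 0.098). In spleen 4 passed, led by Clec4e (r = 0.86, rho = 0.85, adjusted permutation p = 9e-05 and 0.000129). In liver, with the outlying arrays included, 0 of 9 passed, with r between -0.14 and 0.28.

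The Clec4e relation held in both number series of spleen (r = 0.90 and 0.85) and blood (r = 0.78 and 0.83). Without the 2 pairs farthest from the median marker change it was 0.83 in spleen and 0.71 in blood. In liver it was 0.25 over all pairs, 0.03 in the earlier and 0.31 in the later series, and 0.04 without the 2 farthest pairs. Those 2 pairs were chosen by marker change alone. Liver pair 2, with an outlying control, thus stayed in, with Clec4e at -2.35 beside a marker change of 2.58. The liver relation without the 5 outlying pairs was not computed. In breast Clec4d kept its relation to the neutrophil markers (r = 0.71, rho = 0.78, and 0.65 and 0.77 in the series), while that of Clec4e (r = 0.60) was 0.93 in the earlier and 0.14 in the later series, and that of Trem1 (r = 0.47) was 0.91 and 0.11. In thymus 4 passed, and the relation of Tlr13 was 0.75 over all pairs and 0.25 without the 2 farthest pairs.

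**Figure D4:**
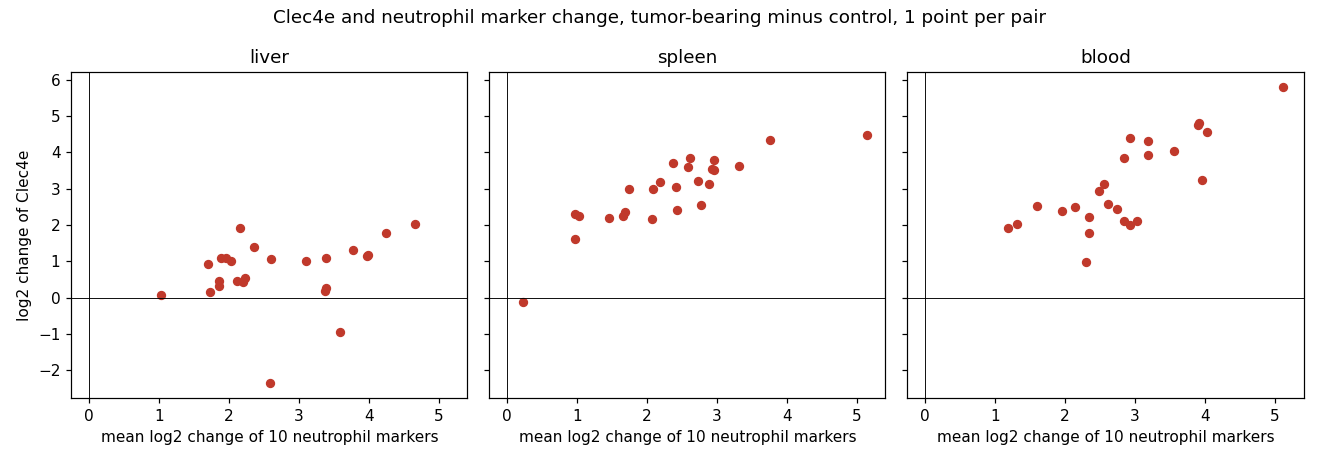
Log2 change of Clec4e (y axis) against the mean log2 change of 10 neutrophil markers (x axis) in liver, spleen and blood, tumor-bearing minus control, 1 point per pair. Points climb together in spleen (r = 0.86) and blood (r = 0.78) and scatter in liver (r = 0.25). Liver pair 2, whose control array was outlying, is the lowest point at -2.35.

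Set against the monocyte and macrophage markers, 7 members passed in blood, 4 in spleen, 4 in breast, 3 in thymus and 3 in liver. Here too the share of all genes that would pass was not counted. Tlr13 had the closest relation in breast (r = 0.89, rho = 0.86, and 0.89 and 0.90 in the series). In blood Cd14, which had not passed with the neutrophil markers, passed here (r = 0.86, rho = 0.84, and 0.93 and 0.82 in the series), whereas Trem1 did not (r = 0.38, rho = 0.39, permutation adjusted p = 0.0867 and 0.102). Liver values of Clec4d (r = -0.72, rho = -0.08) and Clec4e (r = -0.67, rho = -0.22) did not pass by rho and were 0.02 and -0.04 without the 2 farthest pairs. In spleen, Tlr1 had r = 0.86 over all pairs (rho = 0.37) and 0.50 without the 2 farthest. Those were pairs 13 and 19 (marker changes of 1.73 and 0.35), so pair 21 (0.34) stayed in. In the later series r was 0.89, and it was -0.02 in the earlier one, which does not hold pairs 13 and 21.

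Among themselves the members were most alike in blood. Over the 36 pairs of members the median r of their changes was 0.73 in blood (0.48 to 0.92), 0.57 in thymus, 0.49 in spleen, 0.34 in breast and 0.14 in liver (-0.64 to 0.81), as a description over 25 mouse pairs each. Over the 125 pair differences of the 5 tissues together, the non-member genes most like each receptor were found by r, which also reflects differences between tissues. Clec4e was most like Stfa2l1 (0.91), Mmp8, a neutrophil collagenase (0.89), and the chemokine receptor gene Ccr1 (0.87). Trem1 was most like C130050O18Rik, the neutrophil chemokine receptor gene Cxcr2 and Entpd3 (0.84 to 0.85), and Clec4d was most like Ccr1, Clec5a and Nfe2 (0.73 to 0.78). Tlr2 was most like Myd88 (0.85), Cd300lf and Spi1, Tlr6 was most like Cd300lf, Spi1 and Adam19 (0.83 to 0.85), and Tlr13 was most like Pilra (0.87), Cd300lf and Fes. Cd14 was most like Lgals3 (0.78), Rnh1 and Anxa3, and Tlr4 most like Igsf6, Casp4 and Slc11a1 (0.74 to 0.75). Tlr1 stood with Arhgap30, Evi2a and Ms4a6b (0.83 each), none of which was among the genes most like another member.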

How the data were processed

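The authors deposited 1 linear intensity per probe set and array (45101 probe sets on 250 Affymetrix mouse arrays, 5.17 to 47198). How the probes were summarised and normalised is not given in the sources used here. Probe sets were named from the platform annotation: 34945 had 1 symbol, 932 several, 9211 none and 64 were controls. Symbols were updated through Entrez identifiers to GRCm38.p6 (34754 matched, 204 kept). Intensities under the 5th percentile (11.3) were set to it, log2 was taken, and each gene was represented by its probe set with the highest mean level.

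Within-pair differences were fitted with limma 3.58.1 (R 4.3.3), with p-values adjusted by Benjamini and Hochberg over 18193 genes per tissue. Between tissues, pair differences of liver, spleen, blood and thymus entered 1 F-test with 6 contrasts. Relations across pairs used 100000 permutations (SciPy 1.17.1). Matched age- and cage-mates form the pairs: the median correlation of their deviations was 0.31 in liver, 0.25 in thymus, 0.22 in blood, 0.15 in spleen and 0.08 in breast, against -0.02 to 0.01 for unmatched mice. The number of arrays limits the precision. The scripts were tested on simulated data.

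All members were described, together with up to 3 called genes per list and tissue with the largest change. The members and lists were chosen with earlier results of these data known. Alternatives were other floors, quantile normalization, no pairing, other probe set choices, a level filter, and subsets of pairs. An array was outlying where its median correlation with the other arrays of its tissue lay more than 3 interquartile ranges below the first quartile. The subsets without pairs of lower Erbb2 and without arrays nearest another tissue were chosen after seeing the data.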

Additional observations from a re-analysis of the deposited data

Results flagged for a closer look

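The change between tumor-bearing and control mice differed among liver, spleen, blood and thymus for 7 of the 9 receptor genes, by the F-test in limma with p-values adjusted over all genes. For Tlr2 the adjusted p was 1.03e-18, with changes of 1.74 in blood, 0.50 in liver, 0.37 in spleen and 0.13 in thymus. Tlr6 had 1.31e-13 and Tlr4 3.03e-09, with blood changes of 1.45 and 1.49 and none above 0.41 in the other 3 tissues. Tlr13 had 3.16e-08, with 1.74 in blood and 0.84 in spleen. Clec4e had 1.04e-16 and Trem1 6.95e-15, and in both the changes in spleen (2.92 and 1.51) and blood (3.09 and 2.00) stood above those in liver (0.70 and 0.19) and thymus (0.31 and 0.02). Liver control means of Clec4e and Trem1 were low (3.98 and 4.78, with the floor at 3.50), and the part of low signal was not tested. Clec4d had 1.07e-07 and its largest change in spleen (2.53). All 25 pairs entered for each gene and tissue.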

How the results depend on the processing

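Among alternative values for the counts of called members, between-tissue calls and relations, 111 stayed within 1.5 times the reported value and 7 did not. When only genes above the median level were tested, 3 members were called higher in breast (of 3 tested), where 3935 of 9097 genes were. In liver 2 were called higher (of 2), where 963 of 9097 genes were. Between tissues 1 differed (of 2), and the share of all genes is not given there. The cause of these smaller counts lies in the fewer genes tested. The later number series gave 1 member lower in breast (28.2% of all genes lower), and the earlier one 0 higher in liver (0.467% higher). In spleen 2 were lower in the earlier series, where 3870 of 18193 genes were. Dropping spleen pairs with outlying arrays also gave 2 lower (26.6% of all genes). Both spleen counts lie near the shares over all genes. The cause was not tested. Changes that turned direction were Tlr1 in breast (-0.59 in the later series, -0.05 without pairs of lower Erbb2), Tlr4 in liver (-0.00 after quantile normalization, -0.01 in the later series), Tlr6 in spleen (-0.00 after quantile normalization, -0.15 without outlying arrays, -0.20 in the earlier series) and Tlr1 in blood (-0.01 without outlying arrays). In thymus, where nothing was called, they were Tlr1 (-0.08 without outlying arrays, -0.11 in the earlier series), Tlr4 (-0.19), Tlr6 (-0.06) and Clec4e (-0.20) in the earlier series, Tlr6 also after quantile normalization (-0.03) and without outlying arrays (-0.02), and Trem1 after quantile normalization (-0.07), with the mean of its probe sets (-0.01) and in the earlier series (-0.11). Among alternative values for single genes, 401 kept direction and call, 18 reversed, 17 lost their call and 4 gained one. Without the replicate block of the pair, members called higher numbered 8 in blood, 8 in breast, 7 in spleen, 7 in liver and 0 in thymus, as with it. Over all genes, liver calls numbered 1436 higher and 415 lower, against 3384 and 3444 without outlying pairs and 85 and 10 in the earlier series. Quantile normalization gave 6280 higher and 5138 lower in breast, against 5456 and 5873. Signal limits liver Clec4e, whose control median of 3.77 lies near the floor of 3.50. Breast Clec4e, with a control median of 4.13, was also low. Liver Trem1 and Clec4d had control medians of 4.70 and 5.00 and lay under the median level of genes there.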
